A study of Mus musculus with 9 samples.

Results

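The heat shock proteins and their J-domain co-chaperones were followed across 3 mouse cell lines that are used as models of the extra-embryonic endoderm. The group held every gene whose annotated symbol began with Hspa, Hspb, Hsph, Hspd, Hspe, Hsp90aa, Hsp90ab, Dnaja, Dnajb or Dnajc and a number, together with Hsf1, Hsf2, Bag3 and Cryab. Hspa5, the Hsp70 of the endoplasmic reticulum, and names containing ap or bap were left out. The rule found 67 genes, read by 134 probes, of 19057 named genes and 45281 probes on the array. No probe carried the symbol of Hsf1 or Hsp90ab1, and these were not analysed here. The members were chosen by name and not by their levels, although earlier results of these data were known at that time.

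The study hybridized RNA to 9 Illumina mouse bead arrays, with 3 arrays each for END2, PYS2 and XEN. END2 cells are an endoderm-like line that arose from P19 embryonal carcinoma cells and was grown in DMEM/F12. PYS2 cells came from a tumor of strain 129, and the XEN line came from blastocysts of the ICR strain. PYS2 and XEN cells were both grown in high-glucose DMEM with beta-mercaptoethanol, and all 3 lines received fetal bovine serum. No line was given a heat shock or another treatment in the labels. Each line is a single line, so that line, strain of origin and, against END2, medium cannot be told apart. Nothing states that the 3 arrays of a line came from separate cultures. The p-values therefore rest on a spread between arrays that may be technical, and the precision is limited by the number of arrays.

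Chaperones bind unfolded protein chains and keep them from aggregating. Hsp70 proteins bind and release their clients in a cycle of ATP hydrolysis that J-domain proteins start and that exchange factors such as Hsp110 complete, while small heat shock proteins hold unfolded proteins without using ATP. When unfolded proteins accumulate, the transcription factor Hsf1 binds heat shock elements, inverted repeats of the unit GAA, in front of the inducible chaperone genes.

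RefSeq promoter windows of GRCm38.p6, 250 bases before each transcription start, were found for 54 of the 67 genes, in 70 windows. A pair of facing units, GAANNTTC or TTCNNGAA, each of which reads the same on both strands, stood in 15 of these windows (21.43%) and in 12.84% of the 32851 windows of all genes. A run of 3 units facing in alternation extends either pair by a further unit after a gap of the same length. It was searched on both strands and stood in 4 windows (5.71%), those of Dnajb6, Hspd1 and Hspe1, and in 0.47% of all windows. The Dnajb6 windows overlap and hold the same run, so that the 4 windows are fewer than 4 separate sites. The genes Hspd1 and Hspe1 overlap in the annotation, and whether their windows hold the same run was not checked. Counted by gene, the pair stood in 13 of 54 members and 3932 of 27025 genes, and the run in 3 members and 139 genes. The 120 bases before the start are printed, with every match to the pair in capitals, for 6 members that the results below turn on, because letters of this kind are the known target of Hsf1. They are Hspb1 (chr5:135887799-135887918, plus strand), Hspb8 (chr5:116422865-116422984, minus strand), Hspe1 (chr1:55088028-55088147, plus strand), Hsph1 (chr5:149636316-149636435, minus strand), Hspa1a (chr17:34972157-34972276, minus strand) and Hspa1b (chr17:34959239-34959358, minus strand).
Hspb1: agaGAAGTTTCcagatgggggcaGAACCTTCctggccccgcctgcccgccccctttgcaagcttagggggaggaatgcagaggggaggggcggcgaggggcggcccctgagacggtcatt
Hspb8: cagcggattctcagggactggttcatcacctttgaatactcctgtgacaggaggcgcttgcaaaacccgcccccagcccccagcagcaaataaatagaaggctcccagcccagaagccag
Hspe1: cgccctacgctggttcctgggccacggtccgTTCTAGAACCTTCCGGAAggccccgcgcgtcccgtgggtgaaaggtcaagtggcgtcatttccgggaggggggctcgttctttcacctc
Hsph1: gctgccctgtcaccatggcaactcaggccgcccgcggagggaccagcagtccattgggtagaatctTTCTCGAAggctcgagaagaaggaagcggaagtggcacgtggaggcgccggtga
Hspa1a: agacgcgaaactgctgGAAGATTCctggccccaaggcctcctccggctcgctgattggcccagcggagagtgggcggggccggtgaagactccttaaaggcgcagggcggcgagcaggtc
Hspa1b: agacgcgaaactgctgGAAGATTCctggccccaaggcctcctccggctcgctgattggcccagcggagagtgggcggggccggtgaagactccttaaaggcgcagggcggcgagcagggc
In this stretch Hspb1 had 2 matches, starting 117 and 97 bases before the start, and Hspe1 had a continuous run starting at 89. Hspb8 had none in the stretch. The stretches of Hspa1a and Hspa1b differed at 1 of 120 bases, and since these genes are known to be near-identical and the sequences of the probes were not compared, it is uncertain which of them an array reading measures. A match is a description of letters and was not tested as a binding site.

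A probe was counted as detected at a detection p-value under 0.01 and as present in a line when 2 of its 3 arrays detected it. Of the 67 members, END2 cells had 40 present (59.7%), PYS2 cells 39 (58.2%) and XEN cells 40 (59.7%), against 44.2%, 41.5% and 41.5% of all named genes in the same lines. In all 3 lines 36 members were present, 8 were present in 1 or 2 lines, and 23 were present in none, of which 19 were detected on no array. This split by lines was not made for all named genes. The 44 members present somewhere were tested, as part of 9354 genes (16299 probes) in a limma model of the log2 levels over all 9 arrays, p-values being adjusted by Benjamini and Hochberg and called under 0.05. Where a gene had several probes, the brightest stood for it. Dnajc6, Dnajc9, Dnajc18, Dnajc25 and Hspa12b were present in a single line and were tested only because of it. The filter thus favoured a higher level in that line, and their p-values do not allow for this. Their calls are counted with the others, and the same limit holds for the partners Cct6b and Sugt1 below.

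The probes detected per array numbered 13560 to 14940 in END2, 13051 to 13548 in PYS2 and 13266 to 13945 in XEN cells. The END2 arrays were uneven, with Euclidean distances of 72.1 and 78.5 from replicate 3 to the other replicates, which were 35 from each other. Over the brightest tested probe of each of the 44 tested members these distances were 2.86, 2.98 and 1.63. All 66 differences called for the members also passed without END2 replicate 3. The labelled lines were checked against textbook markers. Of 18 extra-embryonic endoderm markers, END2 cells had 11 present, PYS2 cells 18 and XEN cells 16, and the summed signal of the list was 23602 to 35329, 76749 to 104763 and 70595 to 134993 intensity units in these lines. Sox7, Sox17, Lama1, Hnf4a, Amn, Cubn and Ttr were detected on no END2 array. Of 6 fibroblast or mesenchymal markers, 4 (Col1a1, Col1a2, Col3a1 and Thy1) were present in END2 and none in PYS2 or XEN, and these 4 had a summed signal of 2208 to 2736, 75.4 to 107.5 and 69.6 to 122.1. Of 6 pluripotency markers, Nanog was present in END2 alone, Dppa5a in PYS2 and XEN, and the other 4 in no line. Dppa5a averaged 35.7 intensity units in END2, where no array detected it, 22943 in PYS2 and 72.2 in XEN. Of the 18 endoderm markers 14 were lower and 2, Gata6 and Krt19, were higher in END2 than in PYS2. In END2 against XEN 17 were lower and 1, Krt19, was higher, and in PYS2 against XEN 7 were higher and 4 lower. The mesenchymal markers and Nanog moved with the comparisons of END2 below, and Dppa5a with those of PYS2. The part of all these markers in the comparisons was not tested. In such bulk RNA, fewer cells that express a gene and less of its RNA per cell cannot be told apart.

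Hspb8, Dnajc15, Hspb1 and Cryab differed most between the lines, while Hspa8, the constitutive Hsp70 of the cytosol, and Hspd1, the mitochondrial Hsp60, passed in no comparison. In END2 against PYS2 cells 20 of the 44 tested members differed (45.5%, against 55.3% of all tested genes), 10 of them higher in END2 (22.7%, against 26.4%) and 10 lower (22.7%, against 28.8%). In END2 against XEN cells 27 differed (61.4%, against 54.2%), with 10 higher in END2 (22.7%, against 27.5%) and 17 lower (38.6%, against 26.7%). In PYS2 against XEN cells 19 differed (43.2%, against 39.6%), with 5 higher in PYS2 (11.4%, against 21.2%) and 14 lower (31.8%, against 18.4%). The shares called lay on either side of those of all genes, and the shares lower than in XEN were above them. Without normalization between arrays the share lower in END2 than in XEN was 11.4% of the members against 12.6% of all genes, and in PYS2 than in XEN it was 13.6% against 8.1%. The median difference of the members was -0.01, -0.07 and -0.3 on the log2 scale in these comparisons, against -0.03, -0.02 and 0.02 for all tested genes. The arrays of the lines compared did not overlap for 24 members in END2 against PYS2 (54.5%, against 61% of all genes), 32 in END2 against XEN (72.7%, against 62.4%) and 29 in PYS2 against XEN (65.9%, against 54.1%). The comparisons share their arrays, so that a gene extreme in a single line is counted in a pair of them. Without normalization between arrays, 31 of the 66 called differences were kept, 11 of 13 for the small heat shock proteins and none for Hsph1, Hspa2, Dnaja2, Bag3 and Hsf2, and the median of all genes was then at 0.16 in END2 against PYS2 and 0.13 in END2 against XEN. The authors' normalized values kept 64 of the calls, but 26 of the differences were smaller by over 1.5 times, such as that of Hspb8 between END2 and PYS2 (3.46, where it was 5.64).

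**Figure D1:**
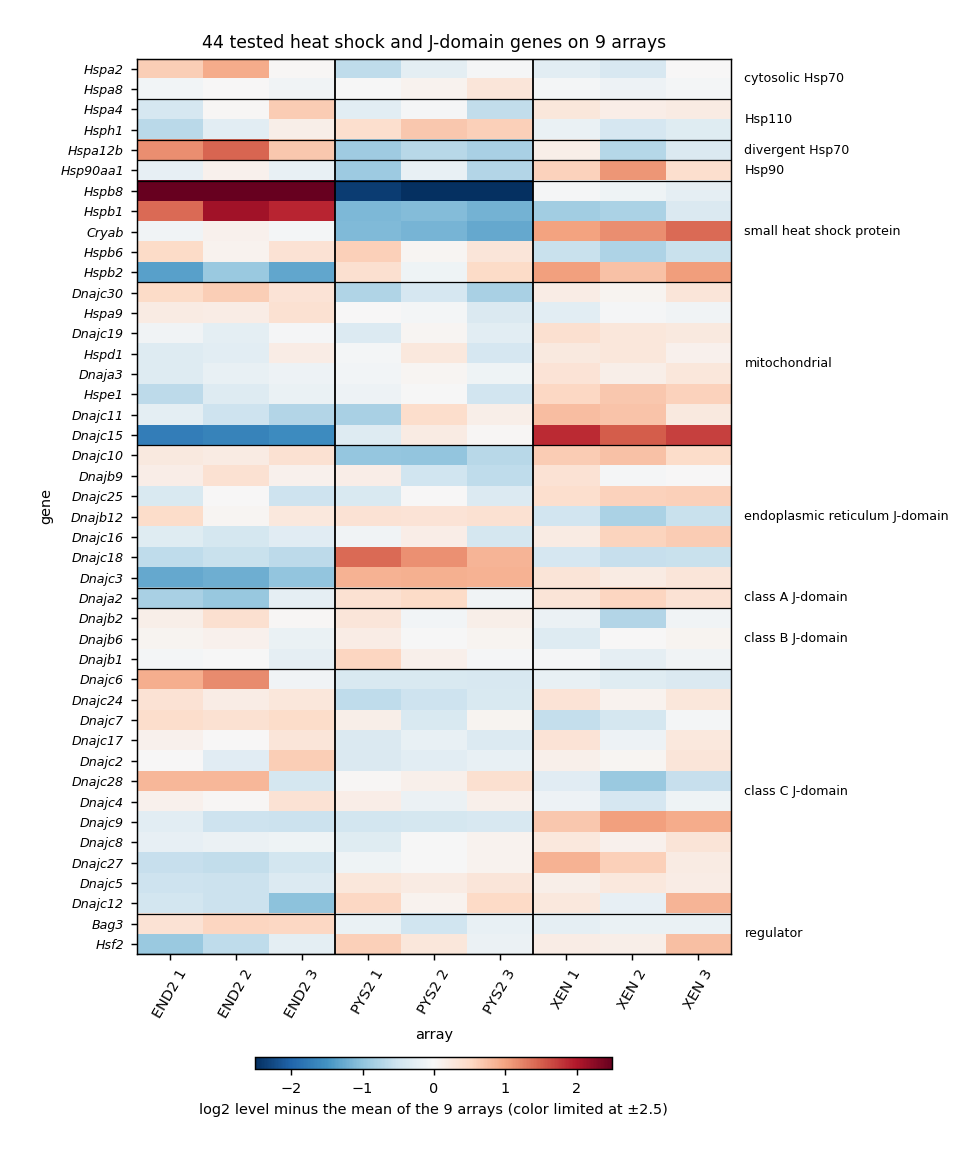
Log2 level of the 44 tested genes on each of the 9 arrays, minus the mean of the gene over the arrays, with genes in rows grouped by role and arrays in columns by line (red higher, blue lower). Hspb8 and Hspb1 are highest on the 3 END2 arrays, Dnajc15 is lowest there and highest on the 3 XEN arrays, and the rows of Hspa8 and Hspd1 are pale.

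The small heat shock proteins differed in opposite directions between the lines. Of the 9 on the array 5 were tested, and the share of all tested genes stands in brackets. In END2 against PYS2 3 were higher (26.4%) and 1 was lower (28.8%). In END2 against XEN 3 were higher (27.5%) and 2 lower (26.7%), and in PYS2 against XEN 1 was higher (21.2%) and 3 lower (18.4%). Hspb3, Hspb7, Hspb9 and Hspb11 were detected on no array. Hspb8, which works with Bag3 to deliver damaged proteins to autophagy, had log2 levels of 10.80, 10.96 and 10.57 on the END2 arrays, 5.52, 5.02 and 4.87 on the PYS2 arrays and 7.86, 7.79 and 7.68 on the XEN arrays. The END2 and XEN arrays all detected it and the PYS2 arrays did not, and no pair of lines overlapped. For a line in which no array detects a probe the level is an upper limit, so that a fold difference from it is a lower limit, written as "at least". It is taken on each array against whichever is higher, the reading of the probe or the dimmest reading of any detected probe. Hspb8 in END2 cells was thus at least 36.9-fold above PYS2 (adjusted p = 6.88e-10), and 8.02-fold above XEN (log2 difference 3.00, SE 0.196, adjusted p = 1.5e-07). The PYS2 level was at least 4.6-fold below that in XEN (adjusted p = 1.21e-06). A second, dimmer Hspb8 probe was detected on the 3 END2 arrays alone, and its PYS2 and XEN levels differed by -0.52 (adjusted p = 0.0584).

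Hspb1, a small heat shock protein that also binds actin filaments, had log2 levels of 10.47, 11.15 and 10.97 in END2, 7.94, 7.97 and 7.87 in PYS2 and 8.18, 8.26 and 8.70 in XEN cells. Every END2 array stood above every other array, and the PYS2 and XEN arrays did not overlap but were close. Hspb1 in END2 cells was 7.64-fold above PYS2 (2.93, SE 0.208, adjusted p = 2.68e-07) and 5.59-fold above XEN (2.48, adjusted p = 1.35e-06). Its difference between PYS2 and XEN did not pass (-0.45, 95% interval -0.91 to 0.01, adjusted p = 0.114). Of the promoter stretches printed above, that of Hspb1 had 2 matches and that of Hspb8 had none.

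Cryab, the alphaB-crystallin of lens and muscle, was ordered differently. Its levels were 10.20, 10.40 and 10.24 in END2, 9.18, 9.12 and 9.01 in PYS2 and 11.29, 11.46 and 11.71 in XEN cells. No array of a line reached the range of another line. Cryab in END2 cells was 2.26-fold above PYS2 (1.18, SE 0.164, adjusted p = 9e-05) and 2.31-fold below XEN (adjusted p = 7.69e-05), and in PYS2 cells 5.22-fold below XEN (adjusted p = 6.54e-07).

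Hspb2, a muscle small heat shock protein whose gene overlaps that of Cryab on chromosome 9 in the RefSeq annotation, had levels of 5.09, 5.51 and 5.15 in END2, 6.84, 6.34 and 6.92 in PYS2 and 7.47, 7.17 and 7.49 in XEN cells. Of the END2 arrays 1 detected it, and the 3 lines did not overlap. Hspb2 in END2 cells was 2.73-fold below PYS2 (adjusted p = 9.01e-05) and 4.38-fold below XEN (adjusted p = 3.98e-06). With the 2 undetected END2 readings raised to the lowest detected level of their arrays, these folds were 2.45 and 3.92. Its difference between PYS2 and XEN was -0.68 (SE 0.202, adjusted p = 0.0202), and this call was lost without PYS2 replicate 2, XEN replicate 1 or XEN replicate 3. Cryab and Hspb2 were thus both lower in PYS2 than in XEN, while END2 stood above PYS2 for Cryab and below it for Hspb2.

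Hspb6, a small heat shock protein of muscle, had levels of 9.87, 9.47 and 9.75 in END2, 9.98, 9.44 and 9.69 in PYS2 and 8.84, 8.62 and 8.83 in XEN cells. The END2 and PYS2 arrays covered the same range, with a difference of 0.00 (95% interval -0.41 to 0.40, adjusted p = 0.987), and the XEN arrays lay below both. Hspb6 in END2 cells was 1.91-fold above XEN (adjusted p = 0.00128) and in PYS2 cells 1.92-fold above XEN (adjusted p = 0.00207). Of the 13 differences called for the small heat shock proteins, 11 also passed without normalization between arrays, the exceptions being Hspb2 and Hspb6 in PYS2 against XEN.

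**Figure D2:**
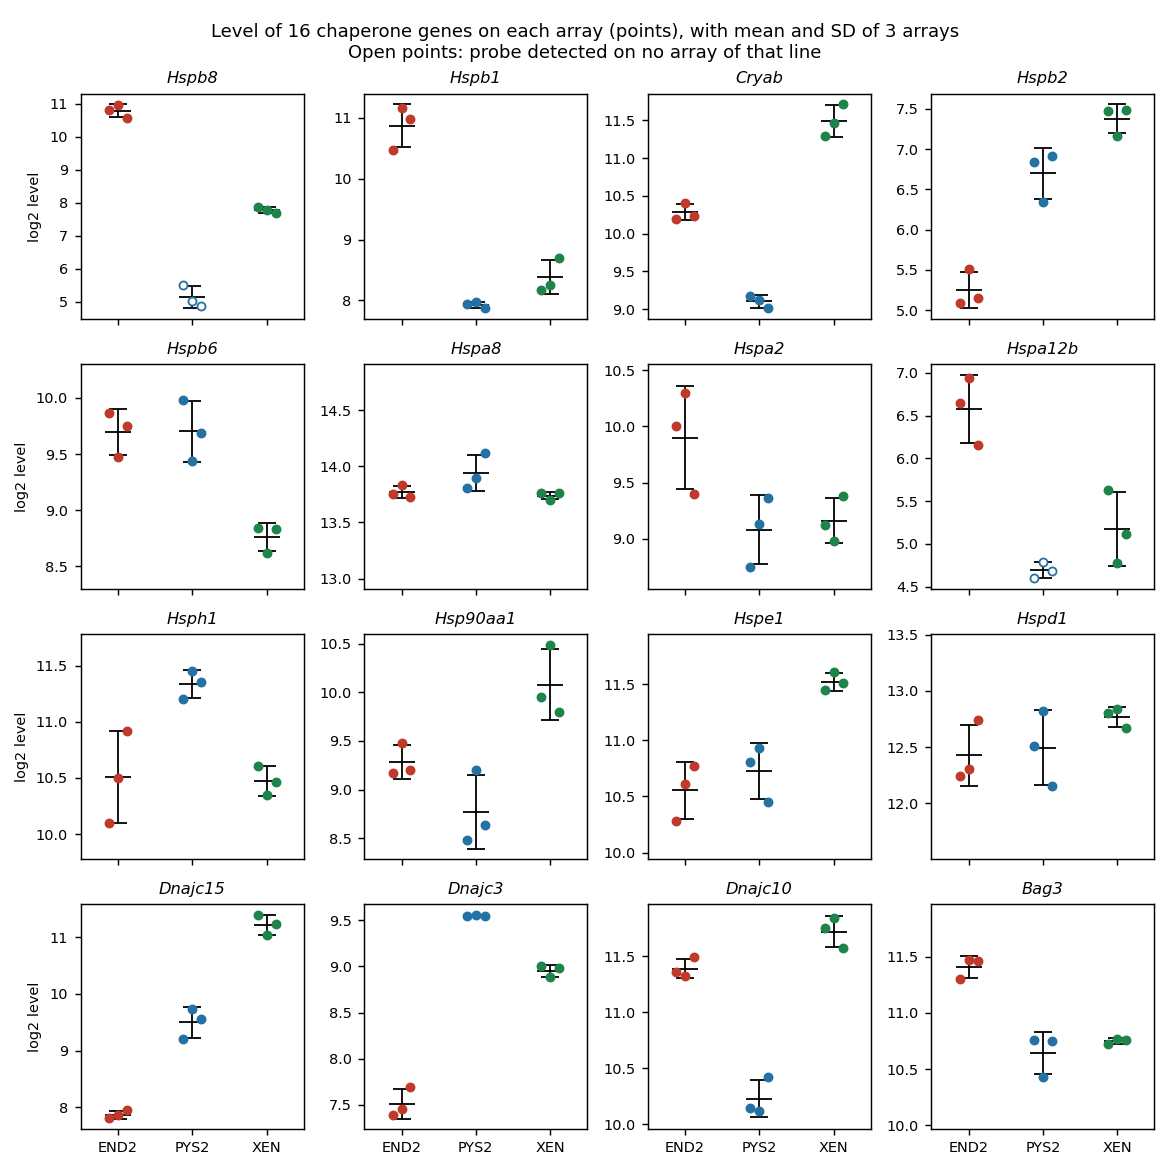
Log2 level of 16 genes on each array of END2 (red), PYS2 (blue) and XEN (green) cells, with the mean and SD of the 3 arrays as bars and open points where no array of the line detected the probe. Each panel has its own vertical axis. The lines are separate for Hspb8, Cryab and Dnajc15, and overlap for Hspd1.

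The cytosolic Hsp70 genes on the array were read mainly through constitutive members. Hspa8, the constitutive Hsc70, had log2 levels of 13.75, 13.83 and 13.73 in END2, 13.81, 13.90 and 14.12 in PYS2 and 13.76, 13.70 and 13.76 in XEN cells. The END2 arrays overlapped those of both other lines, while the PYS2 arrays lay above the XEN arrays without overlap. All 9 arrays lay between 13.70 and 14.12. None of its differences passed, at -0.17 (95% interval -0.50 to 0.16) for END2 against PYS2, 0.03 (-0.30 to 0.36) for END2 against XEN and 0.20 (-0.13 to 0.53) for PYS2 against XEN. Neither of its other tested probes passed in any comparison.

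The stress-inducible Hspa1a and Hspa1b were present in no line. The brightest Hspa1a probe had signals of 49.4, 47.6 and 53.8 intensity units on the END2 arrays, 23.8, 35.1 and 36 on PYS2 and 24.1, 59.8 and 33.9 on XEN. The lowest signal of any detected probe, taken in the same order of arrays, was 50.8, 54.8 and 46.7 on END2, 42.8, 56.8 and 48.6 on PYS2 and 37.6, 80.5 and 42.5 on XEN. Hspa1a was thus above the limit and detected on END2 replicate 3, and under it on the other 8 arrays. The brighter Hspa1b probe, detected on END2 replicate 1 alone, had signals of 51.3, 51.1 and 41 in END2, 19.2, 42 and 23.7 in PYS2 and 18.5, 57.1 and 21.6 in XEN cells. No fold was computed for either, because neither was present in any line and neither was tested. Hspa1l and Hspa14 were detected on no array.

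Hspa2, an Hsp70 best known from spermatogenesis, had levels of 10, 10.30 and 9.40 in END2, 8.75, 9.13 and 9.36 in PYS2 and 9.12, 8.98 and 9.38 in XEN cells. The END2 arrays were above the others, with replicate 3 close to the highest PYS2 and XEN arrays. Hspa2 in END2 cells was 1.76-fold above PYS2 (adjusted p = 0.0149) and 1.67-fold above XEN (adjusted p = 0.0244), and a second Hspa2 probe passed in neither. The first call was lost without END2 replicate 2 or PYS2 replicate 1, and the second without END2 replicate 1 or 2 or XEN replicate 1 or 2. Hspa12b, a divergent Hsp70 of endothelial cells, had levels of 6.65, 6.94 and 6.15 in END2, 4.60, 4.79 and 4.68 in PYS2 and 5.63, 4.77 and 5.12 in XEN cells. It was detected on every END2 array, on no PYS2 array and on 1 XEN array, and was in END2 cells at least 2.01-fold above PYS2 (adjusted p = 5.39e-05) and 2.65-fold above XEN (adjusted p = 0.000544), or 2.06-fold with the 2 undetected XEN readings raised to the lowest detected level. Hspa12a and Hspa13 were detected on no array.

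Among the Hsp110 exchange factors, Hsph1 was highest in PYS2 cells. Its levels were 10.10, 10.50 and 10.92 in END2, 11.20, 11.45 and 11.36 in PYS2 and 10.61, 10.35 and 10.46 in XEN cells. The PYS2 arrays stood above all others, and the END2 arrays spanned the XEN range. Hsph1 in END2 cells was 1.77-fold below PYS2 (-0.83, SE 0.208, adjusted p = 0.00574) and in PYS2 cells 1.82-fold above XEN (adjusted p = 0.00686), and its difference between END2 and XEN did not pass (0.04, 95% interval -0.42 to 0.49). Hspa4, another exchange factor of this family, passed in no comparison, and Hspa4l was detected on no array.

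Hsp90aa1, the inducible form of cytosolic Hsp90, had levels of 9.17, 9.48 and 9.20 in END2, 8.48, 9.20 and 8.64 in PYS2 and 9.95, 10.49 and 9.80 in XEN cells. The XEN arrays stood above all others, and a PYS2 array fell within the END2 range. In PYS2 cells it was 2.48-fold below XEN (-1.31, SE 0.234, adjusted p = 0.00108) and in END2 cells 1.74-fold below XEN (-0.80, adjusted p = 0.0134), and the second of these calls was lost without XEN replicate 2. END2 and PYS2 differed by 0.51 (adjusted p = 0.0879), which passed without PYS2 replicate 2 (0.72, adjusted p = 0.0272) and with the replicate number as a block (adjusted p = 0.0283).

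Of the mitochondrial chaperones, Dnajc15 and Hspe1 were lower in END2 and in PYS2 than in XEN cells. All 8 on the array were tested. In END2 against XEN none was higher (27.5% of all tested genes were), 5 were lower (26.7% of all) and 3 did not pass. In PYS2 against XEN none was higher (21.2% of all), 4 were lower (18.4% of all) and 4 did not pass. In END2 against PYS2 1 was higher (26.4% of all), 1 was lower (28.8% of all) and 6 did not pass. The median difference was -0.45 against XEN in END2 and -0.57 in PYS2, beside -0.02 and 0.02 over all tested genes. Dnajc15, a J-domain protein of the inner membrane that acts on the import motor and the respiratory chain, had levels of 7.81, 7.86 and 7.95 in END2, 9.20, 9.73 and 9.56 in PYS2 and 11.39, 11.04 and 11.23 in XEN cells. Each line occupied a range of its own. Dnajc15 in END2 cells was 3.08-fold below PYS2 (-1.62, SE 0.179, adjusted p = 1.3e-05) and 10.2-fold below XEN (-3.35, adjusted p = 2.79e-08), and in PYS2 cells 3.3-fold below XEN (-1.72, adjusted p = 1.89e-05).

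Hspe1, the lid of the mitochondrial chaperonin, had levels of 10.28, 10.61 and 10.77 in END2, 10.81, 10.93 and 10.45 in PYS2 and 11.45, 11.61 and 11.51 in XEN cells. The XEN arrays were above all others, and the END2 and PYS2 arrays overlapped. Hspe1 in END2 cells was 1.96-fold below XEN (adjusted p = 0.00103) and in PYS2 cells 1.73-fold below XEN (adjusted p = 0.00596). Hspd1, the barrel of the same chaperonin, whose gene overlaps that of Hspe1 on chromosome 1 in the annotation and with the 3-unit run in 1 of its 2 promoter windows as well, had levels of 12.24, 12.30 and 12.74 in END2, 12.51, 12.82 and 12.15 in PYS2 and 12.80, 12.84 and 12.67 in XEN cells. The arrays of the 3 lines overlapped, and no difference passed (END2 against XEN -0.34, 95% interval -0.79 to 0.10). Whether the differences of Hspe1 and Hspd1 differed from each other was not tested.

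Hspa9, the mitochondrial Hsp70, had levels of 13.73, 13.72 and 13.91 in END2, 13.53, 13.48 and 13.16 in PYS2 and 13.26, 13.50 and 13.44 in XEN cells. The END2 arrays were above all others, but the differences of 0.40 from PYS2 (adjusted p = 0.0626) and 0.39 from XEN (adjusted p = 0.0685) did not pass. A second Hspa9 probe passed in both, at 0.71 (adjusted p = 0.00314) and 0.69 (adjusted p = 0.00367). Dnaja3, a J-domain partner of Hspa9, was in END2 cells 1.39-fold below XEN (adjusted p = 0.0195), and Dnajc11, a protein of the cristae junctions, was 2.1-fold lower (adjusted p = 0.00981). Between PYS2 and XEN the brightest Dnajc11 probe did not pass, while another of its tested probes did. Dnajc19, a subunit of the import motor, was in END2 cells 1.34-fold below XEN (adjusted p = 0.0459) and in PYS2 cells 1.4-fold below XEN (adjusted p = 0.0355). Each Dnajc19 call was lost under 6 of the settings that left an array out, those without END2 replicate 1, without PYS2 replicate 3 and without any of the XEN replicates among them. The call for Dnaja3 was lost without END2 replicate 1, XEN replicate 1 or XEN replicate 3.

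Dnajc30, which binds the ATP synthase, had levels of 9.92, 10.07 and 9.78 in END2, 8.70, 9.02 and 8.64 in PYS2 and 9.63, 9.52 and 9.74 in XEN cells. The PYS2 arrays were below all others. Dnajc30 in END2 cells was 2.19-fold above PYS2 (adjusted p = 0.000146) and in PYS2 cells 1.79-fold below XEN (adjusted p = 0.00222). Without normalization between arrays, 1 of the 5 END2 calls and 1 of the 4 PYS2 calls against XEN were kept, in each case that of Dnajc15.

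**Figure D3:**
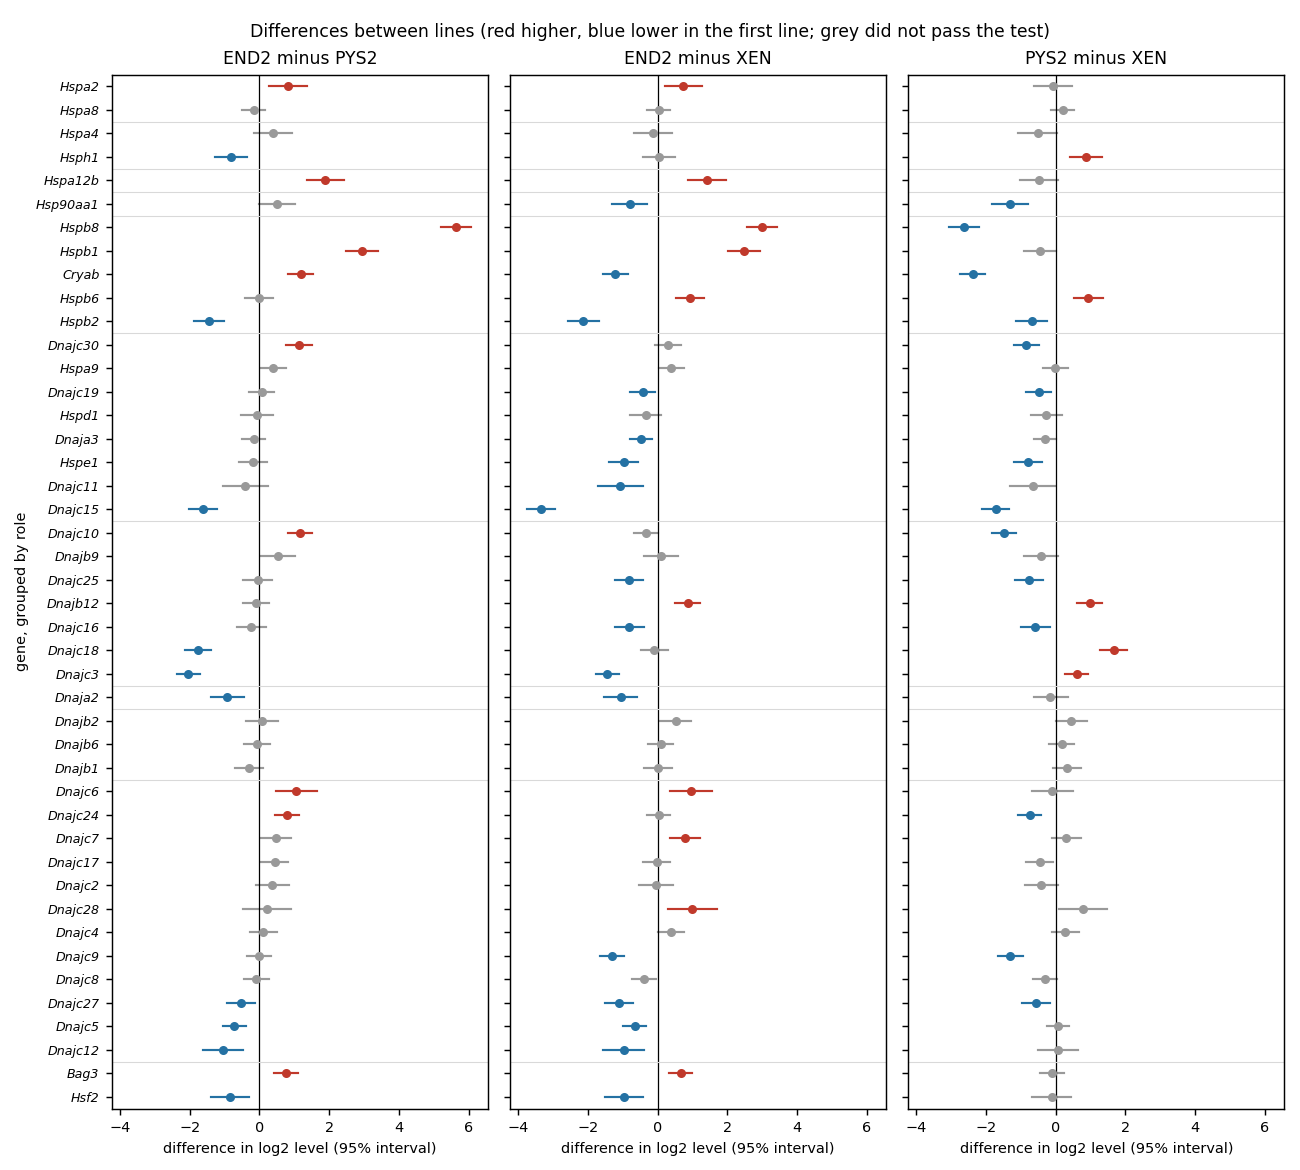
Difference in log2 level of the 44 tested genes in the 3 comparisons, with the 95% interval from the limma model. Red is higher and blue lower in the line named first, grey did not pass, and where a line was below background (Hspb8 in PYS2) the point is the measured difference, not a bound.

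The J-domain proteins of the endoplasmic reticulum lumen and membrane differed without a shared direction. Of 10 on the array 7 were tested. In END2 against PYS2 1 was higher (26.4% of all tested genes were) and 2 were lower (28.8% of all). In END2 against XEN 1 was higher (27.5% of all) and 3 were lower (26.7% of all). In PYS2 against XEN 3 were higher (21.2% of all) and 3 were lower (18.4% of all). Dnajc3, a luminal co-chaperone that also inhibits the stress kinase PERK, had levels of 7.39, 7.45 and 7.69 in END2, 9.55, 9.56 and 9.55 in PYS2 and 9, 8.88 and 8.98 in XEN cells. The 3 lines did not overlap, and END2 was lowest. Dnajc3 in END2 cells was 4.12-fold below PYS2 (-2.04, SE 0.151, adjusted p = 3.92e-07) and 2.72-fold below XEN (adjusted p = 9.15e-06), and in PYS2 cells 1.52-fold above XEN (adjusted p = 0.00883).

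Dnajc10, a disulfide reductase that unfolds proteins for degradation, was lowest in PYS2. Its levels were 11.36, 11.32 and 11.49 in END2, 10.15, 10.12 and 10.42 in PYS2 and 11.75, 11.84 and 11.57 in XEN cells. The PYS2 arrays were below all others. Dnajc10 in END2 cells was 2.23-fold above PYS2 (1.16, SE 0.16, adjusted p = 8.4e-05) and in PYS2 cells 2.8-fold below XEN (adjusted p = 2.48e-05). A dimmer Dnajc10 probe differed by -0.01 between END2 and PYS2 (adjusted p = 0.985) but was lower in both than in XEN (-1.83 and -1.82, adjusted p = 6.03e-06 and 1.39e-05), so that the first of these calls rests on the probe chosen.

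Dnajc18, a membrane J-domain protein, was detected on the 3 PYS2 arrays, at 6.97, 6.71 and 6.42, and on no END2 or XEN array. In END2 cells it was at least 2.58-fold below PYS2 (adjusted p = 4.78e-06) and in PYS2 cells at least 2.26-fold above XEN (adjusted p = 1.85e-05). Dnajb12, which takes part in the degradation of membrane proteins, had levels of 8.68, 8.27 and 8.47 in END2, 8.57, 8.55 and 8.59 in PYS2 and 7.73, 7.42 and 7.66 in XEN cells. Dnajb12 in END2 cells was 1.83-fold above XEN (adjusted p = 0.000976) and in PYS2 cells 1.96-fold above XEN (adjusted p = 0.000811). Dnajc16 and Dnajc25 were lower in END2 than in XEN (1.75-fold and 1.77-fold, adjusted p = 0.00384 and 0.00286), with Dnajc25 detected on 1 END2 array and 1.44-fold lower when the other END2 readings were raised to the lowest detected level. Dnajc25 was on no PYS2 array and at least 1.25-fold lower there than in XEN (adjusted p = 0.00673). The smaller difference of Dnajc16 between PYS2 and XEN (-0.58, adjusted p = 0.0318) was lost without PYS2 replicate 1 or 3 or XEN replicate 2 or 3. It was also lost when the probes of the gene were averaged. Only some of the tested Dnajc16 probes passed in each comparison, END2 against PYS2 included, where the brightest did not. Dnajb9, a target of the unfolded protein response, passed in no comparison.

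The cytosolic class A and class B J-domain proteins, the general partners of Hsp70, gave calls for a single gene. Dnaja2, the class A member that was tested, had levels of 8.38, 8.23 and 8.96 in END2, 9.57, 9.65 and 9.09 in PYS2 and 9.50, 9.71 and 9.54 in XEN cells. The END2 arrays were below all others, and Dnaja2 in END2 cells was 1.89-fold below PYS2 (adjusted p = 0.00445) and 2.09-fold below XEN (adjusted p = 0.00176). Dnaja1 was present in no line. Of 9 class B genes 3 were tested and none passed. Dnajb1, the partner of inducible Hsp70 in disaggregation, had levels of 11.32, 11.36 and 11.15 in END2, 11.92, 11.50 and 11.34 in PYS2 and 11.35, 11.14 and 11.28 in XEN cells. These ranges touched one another, with differences of -0.31 (95% interval -0.71 to 0.09), 0.02 (-0.38 to 0.41) and 0.33 (-0.07 to 0.72). For Dnajb6, which holds back the aggregation of polyglutamine proteins, the brightest probe did not pass, while another differed from XEN by -0.89 in END2 (adjusted p = 0.0363) and by -1.51 in PYS2 (adjusted p = 0.0034), and a further probe by -1.11 in PYS2 (adjusted p = 0.0347).

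Class C J-domain proteins have specialised partners. Of 14 on the array 12 were tested. In END2 against PYS2 2 were higher (26.4% of all tested genes were) and 3 lower (28.8% of all). In END2 against XEN 3 were higher (27.5% of all) and 4 lower (26.7% of all). In PYS2 against XEN none was higher (21.2% of all) and 3 were lower (18.4% of all). Dnajc9, which hands histones to Hsp70, was detected on the 3 XEN arrays, at 5.77, 6.12 and 6.02, and on no other. In END2 cells it was at least 1.56-fold below XEN (adjusted p = 3.41e-05) and in PYS2 cells at least 1.32-fold below (adjusted p = 7.52e-05). Dnajc6, the neuronal auxilin that uncoats clathrin vesicles, was detected on 2 END2 arrays and on no other array, with levels of 5.80, 6.08 and 4.81 in END2. In END2 cells it was at least 1.03-fold above XEN (adjusted p = 0.0111), and against PYS2 (adjusted p = 0.00639) no bound over 1 could be given.

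Dnajc24, an enzyme cofactor of diphthamide synthesis, was lowest in PYS2, with END2 cells 1.72-fold above PYS2 (adjusted p = 0.00119) and PYS2 cells 1.68-fold below XEN (adjusted p = 0.00265). Dnajc12, a partner of the aromatic amino acid hydroxylases, was detected on 2 END2 arrays and was in END2 cells 2.06-fold below PYS2 (adjusted p = 0.00597) and 1.97-fold below XEN (adjusted p = 0.00896). Dnajc5, the cysteine string protein of secretory vesicles, was in END2 cells 1.65-fold below PYS2 (adjusted p = 0.00141) and 1.58-fold below XEN (adjusted p = 0.00267), whereas a second probe showed differences of 0.02 and -0.02 (adjusted p = 0.95 and 0.944). Dnajc7, which bridges Hsp70 and Hsp90, was in END2 cells 1.72-fold above XEN (adjusted p = 0.00527). Dnajc27 in END2 cells was 2.15-fold below XEN (adjusted p = 0.000387), and its differences of -0.54 between END2 and PYS2 (adjusted p = 0.0289) and -0.57 between PYS2 and XEN (adjusted p = 0.0318) were each lost under 9 of 21 alternatives, the authors' normalized values among them. The call against PYS2 was lost without END2 replicate 1 or 2 or PYS2 replicate 2 or 3, and that between PYS2 and XEN without PYS2 replicate 1 or 2 or XEN replicate 1 or 2. Dnajc28 in END2 cells was 2-fold above XEN (adjusted p = 0.0193), or 1.82-fold with the 2 undetected XEN readings raised to the lowest detected level, although END2 replicate 3, at 5.60, lay among the XEN arrays, and the call was lost without END2 replicate 1, END2 replicate 2 or XEN replicate 2. Dnajc17, which is linked to splicing, and Dnajc4 passed in no comparison. Nor did the brightest probes of Dnajc2, the J-domain protein of the ribosome, and of Dnajc8, also linked to splicing. A dimmer Dnajc2 probe differed from XEN by -0.52 in END2 (adjusted p = 0.0478) and by -0.82 in PYS2 (adjusted p = 0.00808). A dimmer Dnajc8 probe differed from XEN by -1.03 in END2 (adjusted p = 0.000471) and by -0.61 in PYS2 (adjusted p = 0.0186).

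Of the regulators, Bag3, the exchange factor that pairs with Hspb8, was higher in END2 cells while Hsf2, a transcription factor related to Hsf1, was lower. Bag3 had levels of 11.30, 11.47 and 11.46 in END2, 10.76, 10.43 and 10.75 in PYS2 and 10.72, 10.77 and 10.76 in XEN cells. The END2 arrays were above all others, while the PYS2 and XEN arrays overlapped. Bag3 in END2 cells was 1.7-fold above PYS2 (0.76, SE 0.156, adjusted p = 0.00155) and 1.58-fold above XEN (0.66, adjusted p = 0.00396), and PYS2 and XEN differed by -0.10 (adjusted p = 0.662). Hsf2 had levels of 6.80, 7.09 and 7.48 in END2, 8.33, 8.01 and 7.58 in PYS2 and 7.91, 7.88 and 8.49 in XEN cells. The END2 arrays were below all others, with replicate 3 close to the lowest PYS2 array. Hsf2 in END2 cells was 1.8-fold below PYS2 (adjusted p = 0.014) and 1.96-fold below XEN (adjusted p = 0.00684), and the call against PYS2 was lost without END2 replicate 1 or PYS2 replicate 1. In all, 12 of the 44 tested members passed in no comparison by their brightest probe. The share of all tested genes that passed in no comparison was not counted, so that this number has no background.

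Other chaperones and co-chaperones, from lists set by name, were measured on the same arrays. The TRiC chaperonin, which folds actin and tubulin, had 2 of 9 subunits higher (26.4% of all tested genes) and 1 lower (28.8% of all) in END2 than in PYS2. In END2 against XEN 1 was higher (27.5% of all) and 3 lower (26.7% of all). In PYS2 against XEN none was higher (21.2% of all) and 3 were lower (18.4% of all). Its subunit Cct4 in END2 cells was 1.92-fold above PYS2 (adjusted p = 0.000387). The subunit Cct5 in END2 cells was 1.73-fold below PYS2 (adjusted p = 0.00407) and 2.05-fold below XEN (adjusted p = 0.000663). The testis form Cct6b was detected in no line but XEN, and in END2 cells stood at least 2.01-fold below it (adjusted p = 1.08e-06). Of 5 prefoldin subunits, which deliver chains to TRiC, none passed between END2 and PYS2, and 1, Pfdn2, was higher in END2 and in PYS2 than in XEN.

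Of 17 Hsp90 co-chaperones, END2 against PYS2 gave 1 higher (26.4% of all tested genes) and 3 lower (28.8% of all). END2 against XEN gave 2 higher (27.5% of all) and 7 lower (26.7% of all). PYS2 against XEN gave 2 higher (21.2% of all) and 5 lower (18.4% of all). Ahsa2, an activator of the Hsp90 ATPase, was detected on no END2 array, and END2 cells stood at least 4.62-fold below PYS2 (adjusted p = 1.84e-07) and at least 3.4-fold below XEN (adjusted p = 1.2e-06). Fkbp5, an immunophilin of steroid receptor complexes, was detected on all END2, 2 PYS2 and no XEN arrays, and was in END2 cells 2.42-fold above PYS2 (adjusted p = 0.0085) and at least 5.12-fold above XEN (adjusted p = 9.09e-05). Cacybp, which shares a domain with the Hsp90 partner Sugt1, was in END2 cells 5.6-fold below XEN (adjusted p = 1.19e-06) and in PYS2 cells 4.14-fold below XEN (adjusted p = 1.4e-05). Sugt1 was detected on the 3 XEN arrays alone, with END2 cells at least 1.71-fold below XEN (adjusted p = 7.54e-05) and PYS2 cells at least 1.45-fold below XEN (adjusted p = 0.000326).

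Among 11 Hsp70 co-chaperones and exchange factors, 2 were higher (26.4% of all tested genes) and 1 was lower (28.8% of all) in END2 than in PYS2. In END2 against XEN 4 were higher (27.5% of all) and 2 lower (26.7% of all). In PYS2 against XEN 2 were higher (21.2% of all) and 1 was lower (18.4% of all). Bag2, an exchange factor that inhibits the ubiquitin ligase Stub1, had levels of 7.21, 7.32 and 8.11 in END2 and 8.56, 8.37 and 8.53 in PYS2 and was detected on no XEN array. In END2 cells it was 1.92-fold below PYS2 (adjusted p = 0.00387) and at least 4.06-fold above XEN (adjusted p = 2.88e-07), and in PYS2 cells at least 7.79-fold above XEN (adjusted p = 9.09e-08). Bag5 was highest in XEN, 2.52-fold lower in END2 (adjusted p = 2.34e-05) and 2.29-fold lower in PYS2 (adjusted p = 0.000113). Of the family of Bag exchange factors, Bag3 was thus highest in END2, Bag2 in PYS2 and Bag5 in XEN cells. Bag1 was higher in END2 and in PYS2 than in XEN (0.39 and 0.54, adjusted p = 0.046 and 0.0151). Bag6 was higher in END2 than in XEN (0.56, adjusted p = 0.0163), and Bag4 passed in no comparison. Of 6 tested partners in the mitochondria, 4 were lower in END2 than in PYS2 (28.8% of all tested genes). Lonp1, a protease of the matrix, was among these 4 (-0.76, adjusted p = 0.0225). In END2 against XEN 1 was lower (26.7% of all), and in PYS2 against XEN 2 were higher (21.2% of all).

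**Figure D4:**
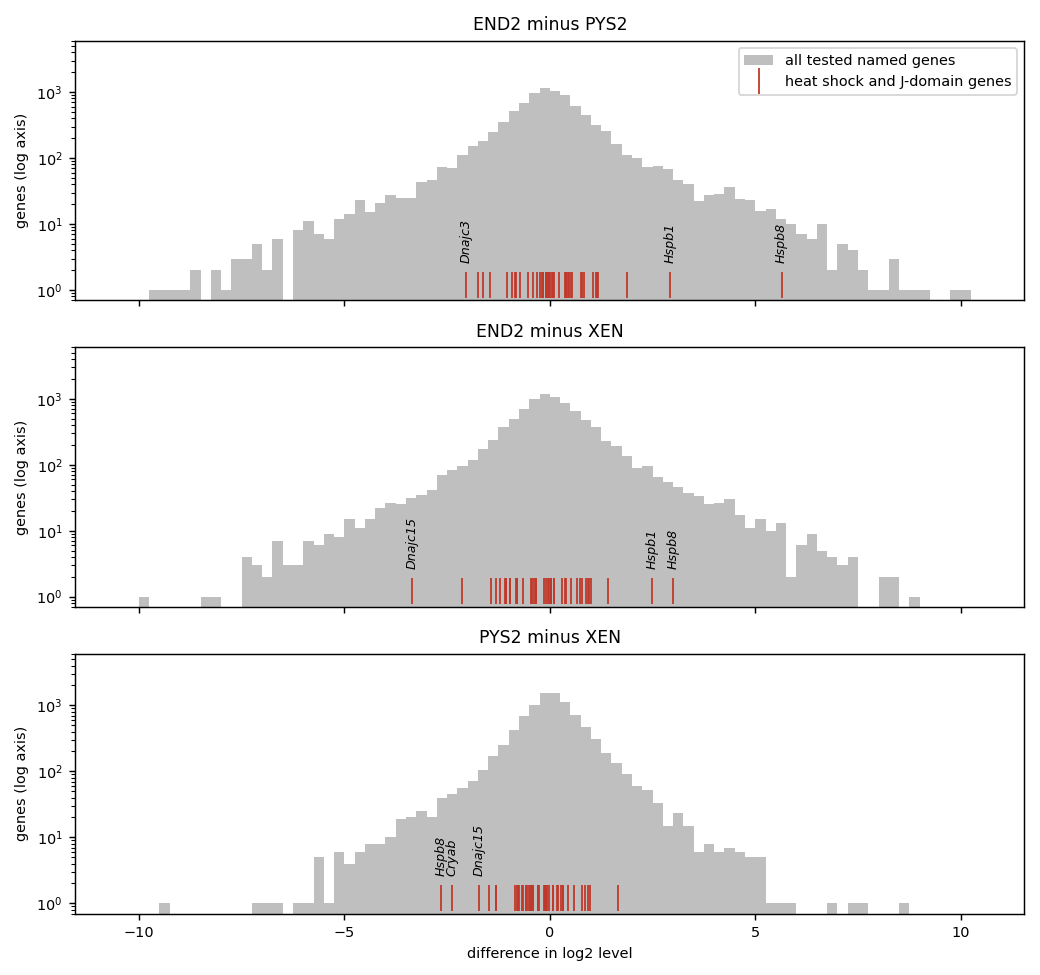
Number of all 9354 tested genes (grey, on a log axis) by difference in log2 level, with each of the 44 tested heat shock and J-domain genes as a red line, for END2 minus PYS2, END2 minus XEN and PYS2 minus XEN. Most members lie in the middle of the distribution, and Hspb8 and Hspb1 stand to the right in both comparisons of END2.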

How the data were processed

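The authors deposited, from the scanner, a fluorescence intensity on a linear scale for every probe and array, and the sources used here do not say whether its background had been subtracted. Beside each intensity the authors deposited a detection score, a fraction from 0 to 1, from which the detection p-value was computed as 1 minus this score. The authors' normalized table, made with lumi, holds deposited values on a log2 scale and was used as an alternative. A further 24 columns of the first table belong to 3 arrays outside the series and were left unused.

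The neqc function of limma 3.58.1 (R 4.3.3, offset 16) was used for background correction and quantile normalization. Gene symbols came from the platform annotation, which gave 1 symbol for 34885 of the 45281 probes, several for 18 and none for 10378. A probe was tested when detected on at least 2 of the 3 arrays of a line (detection p-value under 0.01), which left 16299 probes, 65 of them of members. The 3 comparisons came from 1 limma model with no covariate, and all p-values are adjusted over all tested probes. The limma fit alone was tested on simulated log2 levels with known changes. This did not cover background correction, normalization or the filter on dim probes. The 95% intervals are those of the model and are not adjusted. Arrays have no sequencing depth.

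The members, the lists of partners and markers and the tests were chosen with earlier results of these data known. Genes were given in detail when among the 8 largest called differences on a side of a comparison with no overlap of arrays, or when belonging to a list of well-known chaperones (Hspa1a, Hspa1b, Hspa8, Hspa9, Hspd1, Hspe1, Hsp90aa1, Hsph1, Hspb1, Cryab, Hspb8, Dnajb1, Dnaja1, Hsf2 and Bag3). The partners named were among the 2 largest called differences of their list on a side of a comparison. Not every partner that met this rule was named, those left out including Tcp1, Cct8, Pih1d1 and Clpb. The remaining Bag genes of the list were also named. Every other member with a call is named, while of the members without a call or not tested only some are.

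The alternatives were the authors' values, no background correction, no or cyclic loess normalization, other filters on dim probes, the replicate number as a block, array weights, a trended and robust prior, separate fits for each pair of lines, averaging the probes of a gene, a threshold of 0.01, other rules for presence and each array left out in turn. No slide is given for these arrays, and none was fitted as a block. Promoter sequences are those of RefSeq, GRCm38.p6.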

Additional observations from a re-analysis of the deposited data

How the results depend on the processing

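Of the 66 called differences, 28 passed under all 21 alternatives, 1 more (Dnajc6, END2 against PYS2) passed under the 20 in which it was tested, and none changed direction where tested. The largest change came from omitting normalization between arrays, which lost 35 of them and gave 4 genes lower in END2 than in PYS2 (10 as reported), 5 lower in END2 than in XEN (17), 1 higher in PYS2 than in XEN (5) and 6 lower in PYS2 than in XEN (14). Over all tested genes, that setting moved the share of calls that were higher from 47.8% to 61.1% in END2 against PYS2 and from 50.7% to 60.8% in END2 against XEN. The cause was not tested. With each array left out in turn, the counts ranged from 10 to 11 higher and 8 to 10 lower in END2 against PYS2, 8 to 11 and 15 to 17 in END2 against XEN, and 5 to 6 and 11 to 17 in PYS2 against XEN. The presence counts changed by less than 1.5 times under the other rules. Without a filter on dim probes 9 calls were lost, with the mean of a gene's probes 4, with a threshold of 0.01 13, with the authors' values 2, and with array weights, a trended and robust prior, or fits of only the lines compared none. Of 18 uncalled differences of well-known chaperones, 5 passed under some setting, those of Hspa9 under 7 settings against PYS2 and 6 against XEN.

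Samples with the same replicate number correlated at -0.28 to 0.31 in their deviations from the line means (9 pairs), and samples with different numbers at -0.29 to 0.30 (18 pairs). No pairing by number was seen. Deviations from a line mean cancel out over its arrays, which constrains these correlations, so that a pairing is not excluded. The replicate block kept 63 of the 66 calls and lost those of Dnajc19 against XEN in END2 and in PYS2 and of Dnajc27 in PYS2 against XEN. Of the uncalled differences of well-known chaperones, that of Hsp90aa1 between END2 and PYS2 passed under it. With several tested probes a gene's call was shared by all of them for 12 of 17 such members in END2 against PYS2, 9 in END2 against XEN and 11 in PYS2 against XEN, and no probes of a gene were called in opposite directions. Probes near the detection limit, such as those of Hspa1a, Hspa1b, Dnajc6 and Dnajc9, give bounds or no fold, and a gene detected on no array may still be expressed below the limit.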
